A study of Mus musculus with 2 samples.

Results

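The genes described here are 8 cell-surface molecules that let leukocytes hold on to the vessel wall, namely Selp, Sele, Icam1, Icam2, Vcam1, Mcam, Cd99l2 and Selplg. They were taken by symbol, and all 8 are among the 28692 genes of the deposited count matrices. The measurements are single-cell RNA-seq of CD31+ cells isolated with magnetic beads from the mesentery of C57BL/6 mice at postnatal day 8, with 1 library of control mice and 1 of Flcn iΔEC mice (Cdh5-BAC-CreERT2+ Flcn flox/flox). The study pooled 3 mice in each library, and 40 µg of 4-hydroxytamoxifen, which activates the inducible Cre, was injected under the skin at days 2, 3.5, 5 and 6.5 in both groups. The genotype of the control mice in this experiment was not given in the sources used here. Cre was driven by Cdh5, the gene of VE-cadherin, so recombination was directed to blood and lymphatic endothelial cells, and FLCN itself is a tumor suppressor that keeps the transcription factor TFE3 in the cytoplasm.

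Leukocytes leave the blood in steps. Selectins catch flowing cells by binding sugar-bearing ligands and let them roll, and P-selectin (Selp) is kept in the storage granules of endothelial cells together with von Willebrand factor, whereas E-selectin (Sele) is made upon inflammatory stimulation. PSGL-1 (Selplg) is the main selectin ligand on leukocytes. Firm adhesion follows when leukocyte integrins bind members of the immunoglobulin superfamily on the vessel wall, with ICAM-1 and ICAM-2 as partners of LFA-1 and VCAM-1 as the partner of VLA-4. MCAM (CD146) and CD99L2 sit at endothelial cell contacts, where leukocytes cross the wall. In lymph nodes and Peyer's patches lymphocytes enter through high endothelial venules, and venules are the usual place of entry elsewhere.

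On the mouse genome (GRCm38, GENCODE vM21 annotation) Selp and Sele are neighbours on the forward strand, Selp at chr1:164115264-164150026 and Sele at chr1:164048234-164057677. Icam1 (chr9:21015985-21028817) and Mcam (chr9:44134469-44142727) are on the forward strand as well, and Icam2 (chr11:106377656-106388075), Vcam1 (chr3:116109949-116129688), Selplg (chr5:113818536-113832644) and Cd99l2 (chrX:71420060-71492849) are on the reverse strand. Selp, Icam1, Vcam1, Mcam and Cd99l2 overlap annotated noncoding genes on the opposite strand, so reads there rest on the strand-specific counting of the platform. The RefSeq promoter table (GRCm38.p6) matched 5 of the 8 genes. Its windows are taken before the RefSeq start, which differs from the GENCODE start given above for Icam1 and Mcam. The Icam1 window ended short of the GENCODE start, and the Mcam window (chr9:44134408-44134657) ran past it into the gene. The 250 bases before the start of Selp, Sele and Icam1, members known to answer inflammatory signals, are printed 5′ to 3′ on the forward strand, at chr1:164115014-164115263, chr1:164047984-164048233 and chr9:21015690-21015939, with each match to the NF-κB-type letters GGNNNTTCC on either strand in capitals:
Selp: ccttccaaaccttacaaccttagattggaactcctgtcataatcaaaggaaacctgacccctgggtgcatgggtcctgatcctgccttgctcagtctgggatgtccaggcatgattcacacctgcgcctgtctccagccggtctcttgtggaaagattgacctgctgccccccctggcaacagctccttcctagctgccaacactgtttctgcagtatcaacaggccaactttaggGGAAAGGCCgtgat
Sele: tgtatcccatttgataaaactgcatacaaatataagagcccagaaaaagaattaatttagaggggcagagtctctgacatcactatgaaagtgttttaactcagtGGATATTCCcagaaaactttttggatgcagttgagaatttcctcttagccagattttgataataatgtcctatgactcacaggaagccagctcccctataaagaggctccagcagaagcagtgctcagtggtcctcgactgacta
Icam1: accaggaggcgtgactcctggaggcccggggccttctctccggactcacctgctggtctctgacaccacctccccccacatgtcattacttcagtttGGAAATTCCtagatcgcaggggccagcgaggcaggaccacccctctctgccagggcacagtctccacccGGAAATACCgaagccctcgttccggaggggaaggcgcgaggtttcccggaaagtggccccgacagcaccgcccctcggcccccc
These letters stood at 2 places in the Icam1 window, at 1 place each in the Selp and Sele windows and at 0 places in those of Mcam and Cd99l2, and 15.7% of the 32851 windows of the table held them. The AP-1-type letters TGANTCA were present in the Selp and Sele windows (6.75% of all windows), TATAAA in the Sele window (12.4%) and CACGTG in none of the 5 (6.02%). A match describes the letters and not a site in use.

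Of 6814 control and 4459 Flcn iΔEC cells, 566 (8.31%) and 892 (20%) had at least 2 UMIs (unique molecules counted) of Cdh5. Cells that also carried Ptprc, the pan-leukocyte gene CD45, with at least 3 UMIs and more than 100 counts per 1000000 UMIs (CPM) were set apart (101 and 69 cells). The 465 and 823 endothelial cells left were put into classes by fixed markers, giving 102 control and 140 Flcn iΔEC arterial-like, 111 and 42 capillary-like, 73 and 129 venous-like, 23 and 40 high endothelial venule (HEV)-like and 66 and 335 lymphatic-like cells. Another 5 and 30 cells were venous-like with at least 3 Prox1 UMIs and 200 CPM of Prox1, the lymphatic transcription factor, and are called Prox1-positive venous cells. A further 11 and 14 cells led in genes of lymph node sinuses, with at least 2 of these genes and 1 Prox1 UMI. No lead in lymphatic markers was asked of them, and in Flcn iΔEC their median HEV score (0.70) was above their median lymphatic score (0.23). Another 74 and 93 endothelial cells stayed unassigned. Among cells with fewer Cdh5 UMIs there were 5052 and 2492 lymphocytes, of which 2559 and 1091 were T cell-like, 2422 and 1337 B cell-like and 71 and 64 like innate lymphoid or NK cells. All 10 arterial markers were highest in the arterial-like class of both libraries, 10 and 9 of 10 lymphatic markers in the lymphatic-like class, 9 and 9 of 10 capillary markers in the capillary-like class and 7 and 8 of 8 HEV markers in the HEV-like class. Only 1 and 3 of 10 venous markers were highest in the venous-like class, and most of the others were highest in capillary-like or HEV-like cells. In the sinus-gene cells of the control library the leading genes were those of intestinal Paneth cells (Defa24, Lyz1), so values of these cells are given without a cell type name.

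Each condition had 1 library, so there is no test between them. Levels are summed UMIs per class and library as CPM with exact Poisson 95% intervals, and ratios carry exact 95% intervals, all of which cover counting error only and not the spread between mice. A gene is called past 2-fold when it had at least 50 UMIs in the class over both libraries and its ratio, with 1 count added to each side, passed 2-fold. Sele was under 50 counts in every class, and so were Selplg in arterial-like cells, Selp, Vcam1 and Selplg in capillary-like cells, Cd99l2 in HEV-like cells, Selp in lymphatic-like cells and Selp and Vcam1 in lymphocytes. The libraries differed in sex-linked genes besides genotype (Xist 9 against 63462 UMIs, 4 Y-linked genes 15535 against 17 UMIs), so genotype and sex of the pooled mice cannot be told apart. Flcn stood at 8.83 CPM (83 counts) in control against 9.65 CPM (235 counts) in Flcn iΔEC endothelial cells, a ratio of 1.09 (0.848 to 1.42). These libraries read the 3′ end of transcripts, and reads outside the deleted part of Flcn would not be lost, so this level does not check the label. The libraries shared 6 cell barcodes. In a clustering without these classes, most venous-like cells lay in clusters of mainly 1 library (1 control and 91 Flcn iΔEC cells in one, 48 and 1 in another), and so did most arterial-like cells (4 and 111 in one, 46 and 0 in another). Lymphatic-like cells were split as well (5 and 151 in one, 23 and 0 in another), beside clusters that both libraries shared (16 and 113, 6 and 25, and 14 and 20 cells).

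**Figure D1:**
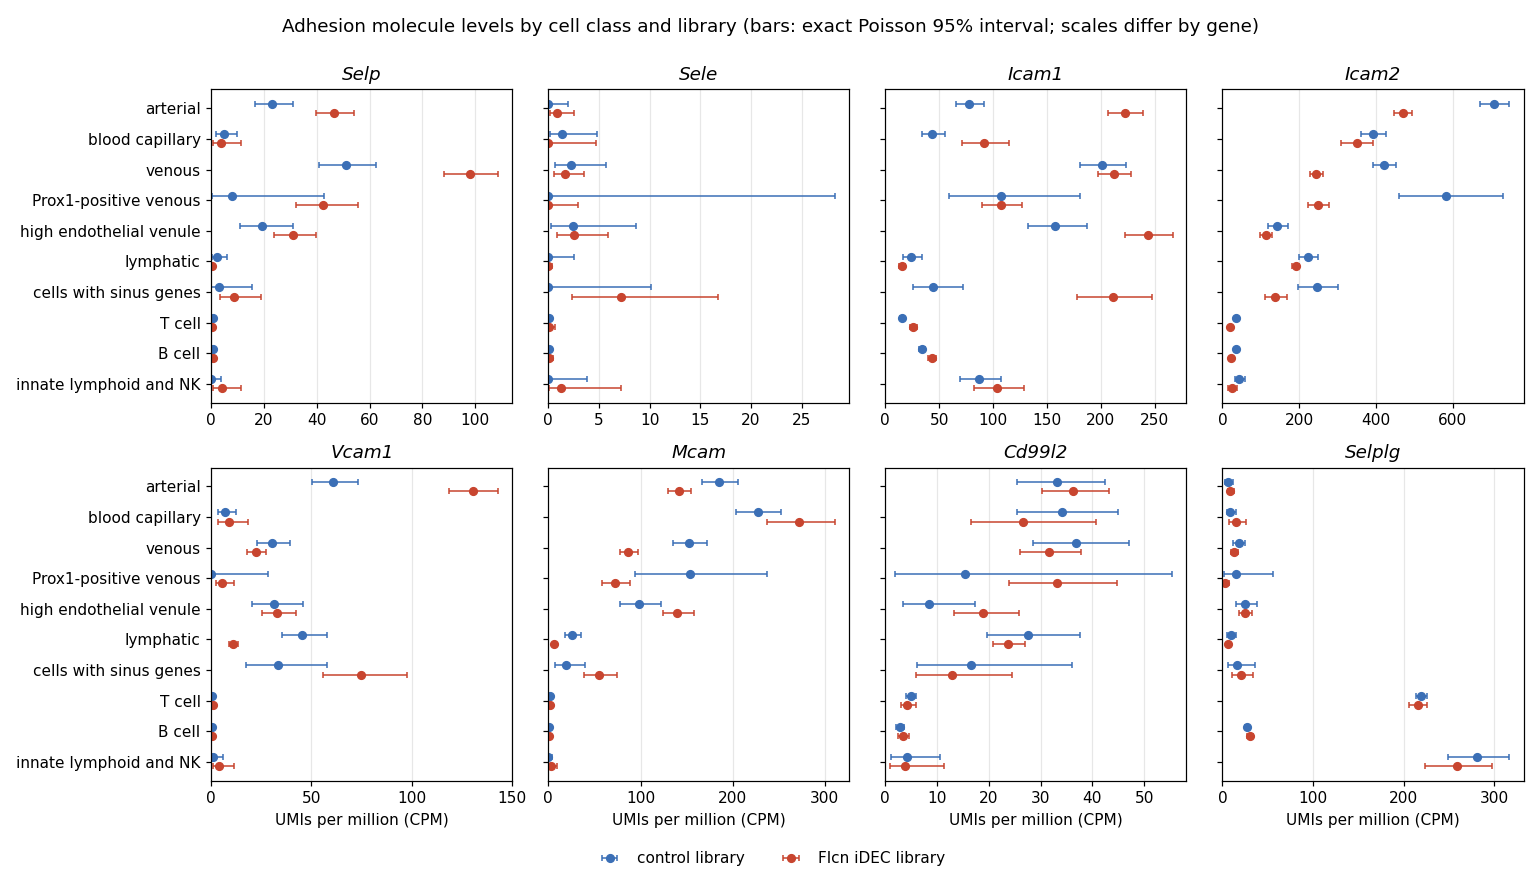
Level of each of the 8 genes (x axis, CPM, a scale of its own for each gene) in 10 cell classes of the control (blue) and Flcn iΔEC (red) library, with summed UMIs over the total UMIs of the class as points and exact Poisson 95% intervals as bars. Selp was highest in venous-like cells (50.9 and 98.1 CPM) and Selplg in T cell-like and innate lymphoid or NK-like cells (220 and 281 CPM in control).

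Selp, the P-selectin gene, had its highest level in venous-like cells in both libraries, and its level in venous-like and arterial-like cells was about 2-fold higher in the Flcn iΔEC library. In venous-like cells it stood at 50.9 CPM (41.0 to 62.5, 91 counts) in control against 98.1 CPM (88.3 to 109, 364 counts) in Flcn iΔEC, a ratio of 1.93 (1.53 to 2.45). In arterial-like cells it stood at 23.0 CPM (43 counts) and 46.4 CPM (161 counts), a ratio of 2.02 (1.43 to 2.90). With 1 count added, neither passed 2-fold. In HEV-like cells the values were 19.1 CPM (16 counts) and 31.0 CPM (61 counts), and the interval of the ratio included 1 (0.921 to 3.01). Among the 5 main endothelial classes the order by level was venous, arterial, HEV in both libraries, and the arterial and HEV intervals overlapped in control (16.6 to 31.0 against 10.9 to 31.1 CPM) and touched in Flcn iΔEC (39.5 to 54.2 against 23.7 to 39.8 CPM). Capillary-like cells held 7 and 3 counts and lymphatic-like cells 3 and 3 counts. In lymphocytes Selp stood at 0.594 and 0.580 CPM.

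The share of venous-like cells with a Selp UMI was 47.9% (35 of 73) in control and 65.1% (84 of 129) in Flcn iΔEC, and 10.5% and 16.2% would be expected had every cell been thinned to 2000 UMIs. Among lymphocytes, in which P-selectin is not made, the shares were 0.475% and 0.482%, and thinned they were 0.132% and 0.123%. The median depth was 18432 and 21828 UMIs in venous-like cells, 7488 and 7760 UMIs in T cell-like cells and 6366.5 and 8190 UMIs in B cell-like cells. A few cells carried much of the total in control arterial-like cells, where the top 5 cells held 62.8% of the Selp counts. When the cell with most Selp UMIs was left out of each library, the ratio was 2.15 (1.68 to 2.80) in venous-like and 2.56 (1.72 to 3.93) in arterial-like cells, so both then lay above 2-fold. In endothelial cells without any Ptprc UMI the venous-like log2 ratio was 0.34 instead of 0.93, and with classes taken from the clusters the arterial-like one was 0.34 instead of 0.99. In the venous-like cells of 2 clusters that both libraries shared, Selp stood at 13.4 and 96.6 CPM (11 and 11 cells, 6 and 68 counts) and at 64.4 and 141 CPM (6 and 22 cells, 11 and 101 counts).

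Sele, the E-selectin gene, was almost undetected. The whole control library held 30 UMIs and the Flcn iΔEC library 34. Venous-like cells held 4 counts (2.24 CPM) and 6 counts (1.62 CPM), and HEV-like cells 2 counts (2.39 CPM) and 5 counts (2.54 CPM). In Flcn iΔEC 5 of the 6 venous counts came from a single cell (83.3%). Lymphatic-like cells held 0 counts in both libraries, which allows up to 2.07 CPM in control against 0.314 CPM in Flcn iΔEC (3 counts). The 14 Flcn iΔEC cells with sinus genes held 5 counts in 4 cells. No difference between the libraries was detectable at this depth (all endothelial cells 10 and 20 counts, ratio 0.772, 0.345 to 1.85).

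Selplg, the gene of the selectin ligand PSGL-1, was a leukocyte gene here, with a low level in B cell-like cells. It stood at 220 CPM (213 to 226) in control against 216 CPM (206 to 225) in Flcn iΔEC T cell-like cells, at 281 and 259 CPM in innate lymphoid or NK-like cells and at 27.4 and 30.6 CPM in B cell-like cells. The ratio between libraries was 0.982 (0.931 to 1.04) in T cell-like, 1.12 (0.976 to 1.28) in B cell-like and 0.920 (0.763 to 1.11) in innate lymphoid or NK-like cells, so each interval included 1. Over all lymphocytes together the ratio was 0.866 (0.826 to 0.908), while T cell-like cells, which carry more Selplg than B cell-like cells, made up 2559 of 5052 lymphocytes in control and 1091 of 2492 in Flcn iΔEC. A Selplg UMI was found in 72.8% and 76.2% of T cell-like and in 16.4% and 21.6% of B cell-like cells. The few macrophage and dendritic-like cells (36 and 19) stood at 118 CPM (54 counts) and 145 CPM (34 counts). Neutrophil-like cells (8 and 7) stood at 126 CPM (8 counts) and 204 CPM (14 counts).

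Endothelial cells held little Selplg, at 13.7 CPM in control against 10.1 CPM in Flcn iΔEC. That was 10.4% and 8.90% of the level in lymphocytes, whereas T and B cell marker genes together stood in the same endothelial cells at 2.86% and 1.80% of their level in lymphocytes. HEV-like cells had the highest endothelial values, 25.1 CPM (21 counts) and 24.9 CPM (49 counts), and they also had the most T and B cell marker RNA (4.72% and 3.48% of the lymphocyte level). Venous-like cells stood at 17.9 and 12.9 CPM.

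Icam1, a ligand of the integrin LFA-1 that is made by endothelial cells and leukocytes, had the largest ratio of the 6 members tested in arterial-like cells and a ratio near 1 in venous-like cells. In arterial-like cells it stood at 77.5 CPM (65.4 to 91.2, 145 counts) in control against 223 CPM (207 to 239, 772 counts) in Flcn iΔEC, a ratio of 2.87 (2.40 to 3.45). Icam1 and Vcam1 were the 2 of 6 tested members past 2-fold up in this class, where 2.44% of 8470 genes were. In capillary-like cells the values were 43.6 CPM (65 counts) and 91.1 CPM (72 counts), a ratio of 2.09 (1.47 to 2.97), and Icam1 was the 1 of 4 tested members past 2-fold up there (2.82% of 6138 genes). The capillary-like result turned with classes taken from the clusters (log2 ratio -0.18 instead of 1.06), whereas the arterial-like one stayed above 2-fold (1.18 instead of 1.51). In venous-like cells it stood at 201 CPM (181 to 223) and 212 CPM (198 to 228), a ratio of 1.05 (0.930 to 1.20), and 0 of 7 members passed 2-fold in either direction (6.69% of 8787 genes). HEV-like cells lay between, at 158 CPM (132 counts) and 244 CPM (481 counts), a ratio of 1.55 (1.27 to 1.89), with 0 of 6 members past 2-fold (4.69% of 6571 genes).

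In control the arterial-like cells thus had a lower Icam1 level than the venous-like cells, with intervals apart, and in Flcn iΔEC the intervals of arterial-like, venous-like and HEV-like cells overlapped (207 to 239, 198 to 228 and 223 to 267 CPM). The median arterial-like cell stood at 35.8 CPM in control against 153 CPM in Flcn iΔEC, and an Icam1 UMI was found in 54.9% and 81.4% of them (12.3% and 30% thinned to 2000 UMIs). The median venous-like cell stood at 178 and 172 CPM. Lymphatic-like cells had low values, 24.1 CPM (35 counts) and 15.5 CPM (148 counts), a ratio of 0.641 (0.441 to 0.955) that became 0.769 (0.510 to 1.20) without the top cell of each library. Cells with sinus genes stood at 44.1 CPM (16 counts) in 11 control cells and 211 CPM (147 counts) in 14 Flcn iΔEC cells, where 1 cell held 42.2% of the counts.

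In lymphocytes Icam1 was lower than in most endothelial classes and higher in the Flcn iΔEC library, at 26.0 and 38.0 CPM (ratio 1.46, 1.34 to 1.60). The ratio was 1.65 (1.39 to 1.95) in T cell-like cells (15.6 and 25.7 CPM), 1.26 (1.12 to 1.41) in B cell-like cells (34.1 and 43.0 CPM) and 1.19 (0.866 to 1.64) in innate lymphoid or NK-like cells (86.9 and 103 CPM). Of 5 tested members 0 passed 2-fold in lymphocytes, where 2.85% of 11501 genes did. Endothelial marker genes stood in lymphocytes at 0.314% and 0.533% of their endothelial level and Icam1 at 24.9% and 33.3% of its own, a larger share than that of the endothelial markers.

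**Figure D2:**
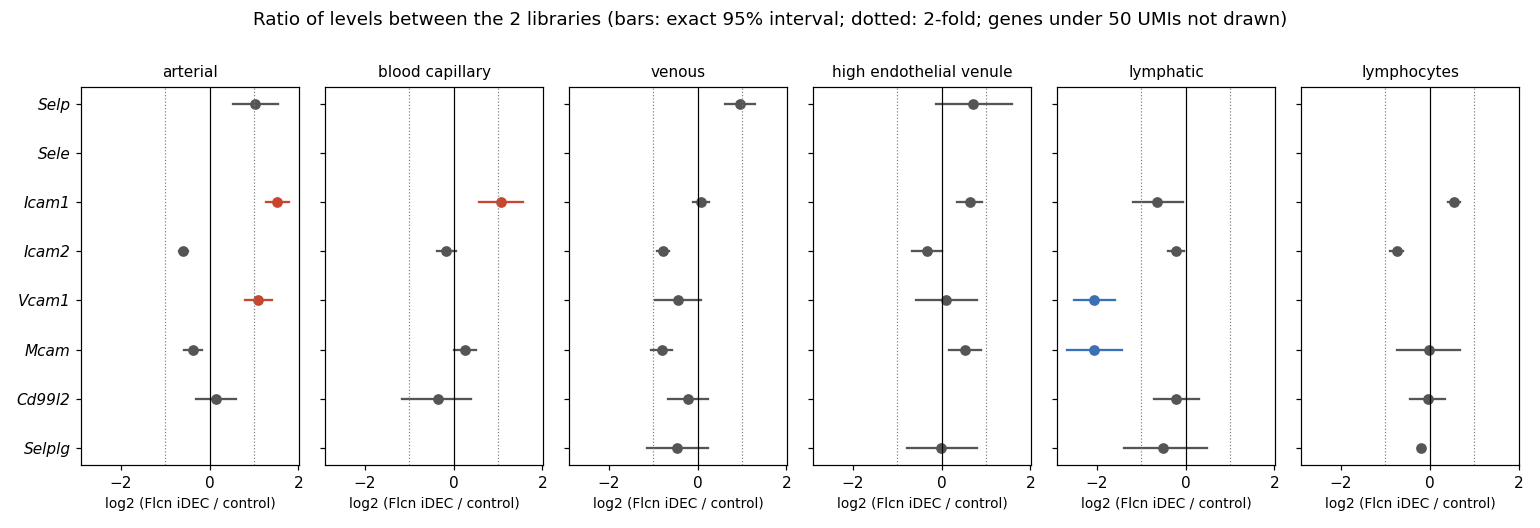
Ratio of levels in the Flcn iΔEC over the control library (x axis, log2) for each gene in 5 endothelial classes and lymphocytes, with exact 95% intervals as bars, red for genes past 2-fold up, blue for past 2-fold down, grey for neither, dotted lines at 2-fold, and genes under 50 counts left out. Icam1 and Vcam1 are red in arterial-like cells, Icam1 in capillary-like cells, and Vcam1 and Mcam are blue in lymphatic-like cells.

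Vcam1, the partner of the integrin VLA-4, was highest in arterial-like cells among the 5 main endothelial classes of both libraries, and its values rested on few cells. In arterial-like cells it stood at 60.9 CPM (50.3 to 73.2, 114 counts) in control against 131 CPM (119 to 143, 453 counts) in Flcn iΔEC, a ratio of 2.14 (1.74 to 2.65). A Vcam1 UMI was found in 26.5% and 54.3% of the cells. One control cell held 40 of the 114 counts, and without the top cell of each library the values were 40.7 and 121 CPM and the ratio 2.99 (2.33 to 3.88). With classes taken from the clusters the log2 ratio was 0.38 instead of 1.09. In the 63 and 51 arterial-like cells without a UMI of pericyte and smooth muscle genes Vcam1 stood at 38.1 CPM (35 counts) and 31.5 CPM (28 counts), a ratio of 0.826 whose interval included 1 (0.484 to 1.40), and the Flcn iΔEC level there was near that of HEV-like cells (33.0 CPM). In the 84 and 88 arterial-like cells with fewer than 5 such UMIs the values were 43.2 and 86.5 CPM. The interval of that ratio lay above 1 (1.46 to 2.78). In lymphatic-like cells the values were 45.5 CPM (66 counts) and 10.9 CPM (104 counts), a ratio of 0.239 (0.174 to 0.330), with Vcam1 and Mcam the 2 of 6 tested members past 2-fold down (6.78% of 10008 genes). A single control cell with 10 Prox1 UMIs and 0 Lyve1 UMIs held 54 of those 66 counts, however. Without the top cell of each library the lymphatic-like values were 8.43 and 8.60 CPM and the ratio 1.02 (0.554 to 2.05), and in endothelial cells without any Ptprc UMI the log2 ratio was 0.38 instead of -2.07.

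In venous-like cells Vcam1 stood at 30.2 CPM (54 counts) and 22.1 CPM (82 counts), a ratio of 0.731 whose interval included 1 (0.513 to 1.05), and in HEV-like cells at 31.1 and 33.0 CPM. Capillary-like cells held 10 and 7 counts. Cells with sinus genes stood at 33.1 CPM (12 counts) and 74.6 CPM (52 counts). In the control library 10 of these 12 counts were in 1 cell, and in the Flcn iΔEC library all 14 cells had at least 1 UMI. Lymphocytes stood at 0.322 and 0.536 CPM, which was 0.942% and 1.55% of the endothelial level.

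Arterial-like cells differed in makeup between the libraries. Cells with at least 500 CPM of 5 capillary genes (Rgcc, Cd36, Gpihbp1, Cd300lg and Btnl9) were 30 of 102 in control and 10 of 140 in Flcn iΔEC. Such cells held 2 and 0 Vcam1 counts and 0 and 1 Selp counts. Among the other 72 and 130 arterial-like cells the ratio was 2.70 (2.23 to 3.30) for Icam1, 1.75 (1.42 to 2.18) for Vcam1 and 1.61 (1.15 to 2.32) for Selp. Genes of pericytes and smooth muscle (8 markers) summed to 544 CPM in control against 650 CPM in Flcn iΔEC arterial-like cells, against 28405 and 24794 CPM in pericyte and smooth muscle-like cells. At least 1 UMI of them was found in 38.2% and 63.6% of arterial-like cells, and 1 and 2 of the 8 genes were at 0. The 10 genes highest by fold in control arterial-like cells held 1 arterial marker (Gja5) and 2 mural ones (Rgs5 and Acta2), and 1 control cell carried 49.1% of the mural counts. In the 63 and 51 arterial-like cells without any such UMI the Icam1 ratio was 3.59 (2.55 to 5.14), the Selp ratio 4.64 (1.88 to 13.8, 6 and 27 counts) and the Vcam1 ratio 0.826 (0.484 to 1.40, 35 and 28 counts). Icam1 and Selp were thus higher in the Flcn iΔEC library in these cells too, and Vcam1 was not. The Vcam1 result depended on the cut, however. In the 84 and 88 arterial-like cells with fewer than 5 such UMIs it stood at 43.2 CPM (54 counts) and 86.5 CPM (158 counts). The interval of that ratio was 1.46 to 2.78. Icam1 (ratio 3.43) and Selp (ratio 3.04) were higher in the Flcn iΔEC library with this cut as well. Pericyte and smooth muscle-like cells themselves held Vcam1 at 46.3 CPM (7 counts) and 17.8 CPM (3 counts), and 0 and 2 Icam1 counts. The part of mural RNA in the arterial-like values was not tested beyond this. In the arterial-like cells of the 1 cluster that both libraries filled (41 control and 11 Flcn iΔEC cells), Icam1 stood at 40.3 and 106 CPM (24 and 21 counts), a ratio of 2.63 (1.39 to 4.93), with 2 and 2 Vcam1 counts and 0 Selp counts.

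**Figure D3:**
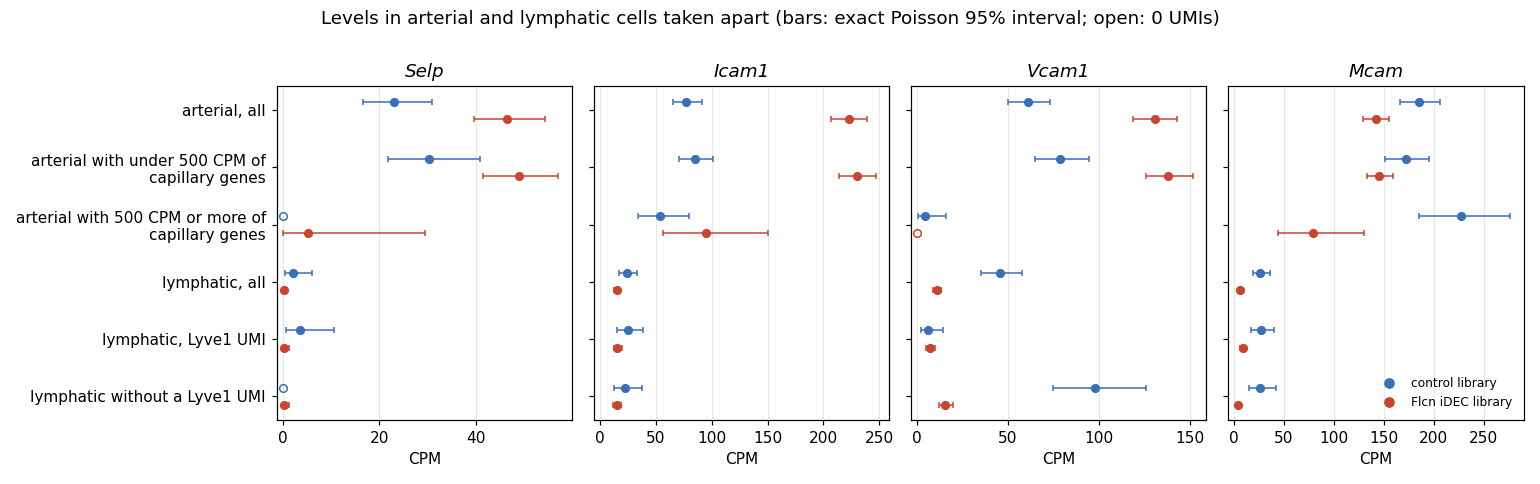
Levels (x axis, CPM with exact Poisson 95% intervals) of Selp, Icam1, Vcam1 and Mcam in all arterial-like and lymphatic-like cells and in each class taken apart by capillary genes or by a Lyve1 UMI, with open points for 0 UMIs. Icam1 is higher in the Flcn iΔEC library (red) than in control (blue) in arterial-like cells under 500 CPM of capillary genes, and the high control Vcam1 value of lymphatic-like cells is in those without Lyve1, at 98.0 CPM, where 1 cell carries most of it.

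Icam2, which is made by resting endothelium without stimulation, was lower in the Flcn iΔEC library in each endothelial class taken whole and in each class of lymphocytes. Over all endothelial cells its level was 401 CPM in control against 239 CPM in Flcn iΔEC, a ratio of 0.597 (0.573 to 0.622). Arterial-like cells had the highest level in both libraries, 708 CPM (671 to 748, 1325 counts) and 470 CPM (447 to 493, 1630 counts). Venous-like cells stood at 421 CPM (752 counts) and 244 CPM (907 counts), a ratio of 0.581. Values in capillary-like cells were 392 and 349 CPM (interval of the ratio 0.769 to 1.03), in lymphatic-like cells 223 and 191 CPM, in HEV-like cells 142 and 113 CPM and in cells with sinus genes 245 and 138 CPM. The order by level in control was arterial, then venous and capillary with overlapping intervals (391 to 452 and 361 to 425 CPM), then lymphatic, then HEV. In Flcn iΔEC capillary-like cells (309 to 393 CPM) stood above venous-like cells (229 to 261 CPM). In the lymphatic-like cells of 1 cluster that both libraries filled (16 and 113 cells) Icam2 was higher in Flcn iΔEC, at 142 CPM (52 counts) in control against 228 CPM (658 counts), a ratio of 1.60 (1.21 to 2.17).

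Lymphocytes, which the Cdh5 driver is not meant to reach, had a ratio of the same size as all endothelial cells together. The makeup of the latter differed, with 66 of 465 and 335 of 823 lymphatic-like cells, which were low in Icam2. Within the main classes the ratio was 0.663 in arterial-like, 0.890 in capillary-like, 0.581 in venous-like, 0.792 in HEV-like and 0.858 in lymphatic-like cells. Icam2 stood at 35.8 CPM (34.0 to 37.7, 1446 counts) in control against 21.4 CPM (19.5 to 23.4, 479 counts) in Flcn iΔEC lymphocytes, a ratio of 0.597 (0.538 to 0.663). The ratio was 0.568 in T cell-like, 0.622 in B cell-like and 0.559 in innate lymphoid or NK-like cells, each with an interval below 1. Icam2 in lymphocytes was 8.93% and 8.94% of the endothelial level, against 0.314% and 0.533% for endothelial marker genes. The difference in Icam2 was thus not limited to endothelial cells, and deletion, sex of the mice and library cannot be told apart here. Icam2 did not pass 2-fold in the 5 main endothelial classes, the cells with sinus genes or the lymphocytes, and it passed 2-fold down in the Prox1-positive venous cells described further on, of which control had 5.

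Mcam, the gene of CD146 on endothelial and mural cells, was lower in Flcn iΔEC venous-like and lymphatic-like cells and not in capillary-like or HEV-like cells. In lymphatic-like cells it stood at 26.2 CPM (18.5 to 36.0, 38 counts) in control against 6.27 CPM (4.79 to 8.07, 60 counts) in Flcn iΔEC, a ratio of 0.239, and 0.246 without the top cells. A UMI was found in 25.8% and 14.6% of these cells. In lymphatic-like cells with a Lyve1 UMI, a marker of lymphatic capillaries, the ratio was 0.317 and in those without 0.143. In a cluster that held 23 control and 0 Flcn iΔEC lymphatic-like cells there were 15 of the 38 control counts. In the clusters that both libraries shared the ratio was 0.507 (0.101 to 4.90, 2 and 8 counts), 0.536 (0.161 to 1.79, 7 and 7 counts) and 0.141 (0.0581 to 0.344, 12 and 12 counts), so 1 of these 3 intervals left out 1. In venous-like cells the values were 153 CPM (273 counts) and 86.8 CPM (322 counts), a ratio of 0.568. Markers of other cells that carry Mcam moved with it in this class: 10 capillary markers summed to 7423 and 2996 CPM (3 and 2 of them at 0) and 8 pericyte and smooth muscle markers to 176 and 51.5 CPM (4 and 4 at 0). The sum of 6 fibroblast markers was 162 and 15.1 CPM (3 and 2 at 0), and the part of these cells in the Mcam value was not tested. Arterial-like cells stood at 185 and 142 CPM (ratio 0.765), capillary-like cells at 227 and 272 CPM (1.20, 1.004 to 1.42) and HEV-like cells at 98.1 and 140 CPM (1.43, 1.11 to 1.85). Capillary-like cells had the highest level of the 5 main endothelial classes in both libraries, although in control their interval met that of arterial-like cells (204 to 253 against 167 to 206 CPM), and lymphatic-like cells had the lowest.

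Over all endothelial cells together Mcam had a ratio of 0.487 and was the 1 of 7 tested members past 2-fold down (5.79% of 12388 genes). The makeup of the endothelial cells differed beside it: lymphatic-like cells, which were low in Mcam, were 66 of 465 in control and 335 of 823 in Flcn iΔEC, and capillary-like cells, which were high, were 111 and 42. Pericyte and smooth muscle-like cells stood above every endothelial class, at 469 CPM (71 counts in 11 cells) and 349 CPM (59 counts in 12 cells). Lymphocytes stood at 1.26 and 1.25 CPM.

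Cd99l2, a relative of CD99 that takes part in the passage of leukocytes between endothelial cells, was at similar levels in 4 of the 5 main endothelial classes of the control library. It stood at 33.1 CPM (62 counts) and 36.3 CPM (126 counts) in arterial-like, 36.9 and 31.5 CPM in venous-like, 34.2 and 26.6 CPM in capillary-like and 27.6 and 23.7 CPM in lymphatic-like cells. Each interval of these ratios included 1, and these 4 classes overlapped in their intervals within the control library. In Flcn iΔEC the interval of arterial-like cells (30.3 to 43.2 CPM) lay above that of lymphatic-like cells (20.7 to 27.0 CPM). HEV-like cells were lower, at 8.37 CPM (7 counts) in control against 18.8 CPM (37 counts) in Flcn iΔEC (interval of the ratio 0.987 to 5.96). Lymphocytes stood at 3.91 and 3.79 CPM. Cd99l2 is on the X chromosome and its ratio over all endothelial cells was 0.939 (0.813 to 1.09).

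Within the Flcn iΔEC library the 30 Prox1-positive venous cells were set beside the 129 other venous-like cells, which addresses the adhesion genes of venous cells that carry a lymphatic factor. Prox1, which chose the cells, stood at 498 CPM against 47.4 CPM, and 49.6% of the other venous-like cells also had a Prox1 UMI. A lead of 0.2 over the lymphatic score was asked of the other venous-like cells only, and 14 of the 30 Prox1-positive cells had a lead under 0.4. Their median venous score was 0.33 against 0.54 and their median lymphatic score -0.23 against -0.51. The part of this unlike rule in the ratios was not tested. Selp stood at 42.5 CPM (31.9 to 55.5, 54 counts) against 98.1 CPM, a ratio of 0.433 (0.319 to 0.578), and Icam1 at 107 CPM (136 counts) against 212 CPM, a ratio of 0.504 (0.417 to 0.606). Vcam1 held 7 counts (5.51 CPM against 22.1 CPM), a ratio of 0.249 (0.0972 to 0.537), and Selplg 3 counts (2.36 CPM against 12.9 CPM). Icam2 (250 against 244 CPM), Mcam (72.4 against 86.8 CPM) and Cd99l2 (33.1 against 31.5 CPM) had intervals that included 1. Selp, Vcam1 and Selplg were the 3 of 7 tested members past 2-fold down, where 3.47% of 8426 genes were. Both sets of cells came from 1 library, so sex and library are shared, and the median depth was 39237 UMIs per Prox1-positive cell and 21828 UMIs per other venous-like cell. The sum of 6 proliferation markers was 985 CPM in Prox1-positive and 339 CPM in other venous-like cells, cell-cycle genes (Dlgap5, Cep55, Ckap2 and Cdc20 among them) were in the 10 genes highest by fold in the Prox1-positive cells, and 0 venous or lymphatic markers were. The part of dividing cells in these values was not tested. The control library had 5 such cells, in which 3 of the 10 leading genes were markers of other classes (Tagln, Top2a and Cenpf). They held 1 Selp, 14 Icam1, 76 Icam2 and 20 Mcam counts. Against them Icam2 (583 and 250 CPM, ratio 0.428, 0.332 to 0.557) and Mcam (153 and 72.4 CPM, ratio 0.472, 0.289 to 0.808) passed 2-fold down in Flcn iΔEC and Selp (7.67 and 42.5 CPM, interval of the ratio 0.953 to 223) passed it up, 3 of 4 tested members where 15% of 4449 genes passed in either direction.

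**Figure D4:**
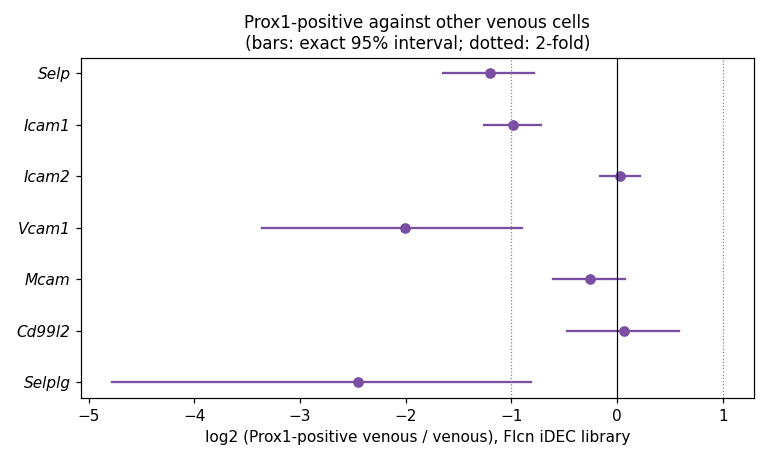
Ratio of levels in Prox1-positive venous over other venous-like cells of the Flcn iΔEC library (x axis, log2, exact 95% intervals as bars, dotted lines at 2-fold) for the 7 members with at least 50 counts. Selp, Icam1, Vcam1 and Selplg lie below 0 with their whole interval, and Icam2, Mcam and Cd99l2 lie about 0.

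Of 55 other genes of leukocyte adhesion in 6 lists 53 were measured. Among those named below, Vwf and Il1r1 were also venous class markers, and Gcnt1, Madcam1 and Chst4 were HEV class markers. Their levels by class thus depend in part on the rule that placed the cells, and this part was not tested. Among all tested genes the share past 2-fold up was 2.44%, 2.99%, 3.77% and 1.89% and the share past 2-fold down 4.62%, 3.70%, 6.78% and 0.965% in arterial-like cells, venous-like cells, lymphatic-like cells and lymphocytes. Of the 4 to 6 tested rolling partners (Podxl, Cd34 and the like) 0 passed 2-fold in arterial-like cells, venous-like cells and lymphocytes, and in lymphatic-like cells Madcam1, the mucosal addressin, passed it upwards (3 and 87 counts, 2.07 and 9.09 CPM, interval of the ratio 1.45 to 21.7). Of the cytokine receptors and NF-κB genes, Tnfaip3, an NF-κB target that dampens the pathway, was the 1 of 11 past 2-fold, upwards, in arterial-like cells (9.09 and 47.0 CPM, ratio 5.17, 3.13 to 9.09) and in venous-like cells (33.6 and 84.1 CPM, ratio 2.50, 1.90 to 3.36). The other 10 genes of that list did not pass in either class, and its median log2 ratio was −0.01 in arterial-like and 0.05 in venous-like cells against −0.15 and −0.08 over all genes. Lymphocytes held more Tnfaip3 than these cells, at 186 and 158 CPM. Within Flcn iΔEC venous cells Tnfaip3 stood at 4.72 CPM (6 counts) in Prox1-positive and 84.1 CPM in other cells.

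Of the genes that make selectin ligands, Gcnt1, a glycosyltransferase for branched O-glycans, passed 2-fold down in venous-like cells (59.3 and 21.6 CPM, 1 of 7 tested) and in lymphatic-like cells (72.4 and 14.9 CPM, 1 of 7 tested). Of the genes for granules and membrane anchors, Vwf, itself a venous class marker, passed 2-fold down in venous-like cells (2943 and 1368 CPM, ratio 0.465, 0.447 to 0.483). Its granule partner Selp had a ratio of 1.93 in these cells. Cd63, a tetraspanin of lysosomes and storage granules, passed 2-fold up in arterial-like (316 and 959 CPM), venous-like (187 and 975 CPM) and lymphatic-like cells (650 and 4303 CPM). In lymphocytes it also passed 2-fold up (2.35 and 14.3 CPM), but these levels were 0.795% and 0.586% of the endothelial ones, beside 0.314% and 0.533% for endothelial marker genes there. The part of endothelial RNA in these lymphocyte values was not tested. In lymphatic-like cells Vwf (27.6 and 5.12 CPM) and Rab3d, a small GTPase of secretory granules (21.4 and 8.67 CPM), passed 2-fold down as well. Jam3, a junctional adhesion molecule, passed 2-fold down in arterial-like cells (18.7 and 7.49 CPM, 1 of 6 tested). Of the leukocyte integrins 0 passed in arterial-like, venous-like, lymphatic-like cells or lymphocytes, with 2, 3, 1 and 7 of 8 tested. Over all endothelial cells together, where class makeup also counts and 3.71% of genes passed up and 5.79% down, Jam2, Alcam, Itgb2, Itgb7 and Vwf passed 2-fold down (ratios 0.310 to 0.495), and Cd63 (8.24) and Chst4, a sulfotransferase of HEV ligands (7 and 117 counts, 6.45), passed it up. Between Prox1-positive and other venous cells Cd34, Madcam1, Jam3, Itga4, Il1r1, Tnfaip3 and Rab27a passed 2-fold down (ratios 0.0282 to 0.472), which 3.47% of 8426 genes did. They were 2 of 4 tested rolling partners, 1 of 6 other junctional genes, 1 of 2 integrins, 2 of 11 cytokine receptor and NF-κB genes and 1 of 8 granule and anchor genes. Of 7 tested selectin ligand genes 0 passed down. In the 6 lists 0 genes passed 2-fold up, which 2.44% of 8426 genes did.

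Over the 17 class and library groups with at least 30 cells, the genes whose log2(CPM + 1) pattern was most like that of a member were found among 11451 genes with at least 200 counts. For Selp these were Vwf (Pearson r 0.954), Nfatc4 (0.923) and Ptgis (0.918), for Icam1 Shtn1 (0.829), Eml2 (0.820) and Decr1 (0.813), and for Icam2 Copz2 (0.988), Dync1h1 (0.980) and Syne2 (0.977). For Vcam1 they were Atp7a (0.928), Fam71a (0.926) and Inafm1 (0.912), for Mcam Sparc (0.984), Lzts2 (0.978) and Tmem47 (0.978), for Cd99l2 Fkbp9 (0.991), Ppic (0.989) and Prrg2 (0.986), and for Selplg Ipcef1 (0.964), Ptpn22 (0.962) and Hcst (0.958). Sele had too few counts, and Vwf was also a marker by which venous-like cells were placed. On the scale of log2(CPM + 10) 1 of the 3 genes was the same for Selp (Vwf), Icam1 (Decr1) and Vcam1 (Atp7a), and 2 of 3 for Icam2, Mcam, Cd99l2 and Selplg. Among the members the closest pairs were Icam2 with Cd99l2 (0.943) and Icam2 with Mcam (0.911), and Selp was closest to Icam1 (0.808). These groups come from 2 libraries and hold both endothelial cells and lymphocytes, so the values are a description.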

How the data were processed

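Single-cell libraries (Chromium 3′ v3) of CD31+ mesenteric cells were sequenced by the authors on a HiSeq3000 and aligned with Cell Ranger 3.0, per the labels, to mm10. The deposited values are raw UMI counts per gene and cell without normalization. The depth was 64639756 UMIs in 6814 control cells and 60805779 UMIs in 4459 Flcn iΔEC cells, with medians of 7283 and 8587 UMIs per cell.

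Cells were scored by the mean z of log counts per 10000 over fixed markers. A class had to lead by 0.2 with 3 markers detected. Prox1-positive venous cells did not need this lead over the lymphatic score. Cells with sinus genes needed at least 2 sinus genes and 1 Prox1 UMI in place of the 3 markers. These thresholds, and those on Ptprc, Prox1 and sinus genes, were set after the cells had been seen, and 6, 17, 17, 4 and 13 control and 5, 8, 18, 2 and 17 Flcn iΔEC cells of the arterial-like, capillary-like, venous-like, HEV-like and lymphatic-like classes had a lead under 0.4. CPM, exact Poisson, Clopper-Pearson and conditional intervals were computed with scipy 1.17.1, and the scripts were tested on simulated data. Shares of cells were also expected at 2000 UMIs per cell, leaving out shallower cells. Doublets were called with Scrublet in scanpy 1.11.5 (142 and 37 cells, 0 and 1 among the endothelial cells) and removed only in an alternative. The members and lists were chosen with earlier results of these data known. Named were all members, Flcn, class markers, list genes past 2-fold and the 3 genes most like each member, apart from 1 list gene that is not reported here. Genes named as leading a class and the mural and capillary genes were chosen after values were seen. Positions are from GENCODE vM21 and promoters from RefSeq.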

Additional observations from a re-analysis of the deposited data

Results flagged for a closer look

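Icam1, Vcam1 and Mcam had ratios on opposite sides of 1, each with an interval that left out 1, in different cell classes, which marked them for a closer look. The difference between classes was not tested, since each condition had 1 library. For Icam1 the log2 ratio of Flcn iΔEC over control was 1.51 in arterial-like, 1.06 in capillary-like and 0.62 in HEV-like cells, 2.18 in cells with sinus genes and 0.55 in lymphocytes, against -0.67 in lymphatic-like cells. The lymphatic value was -0.42, with an interval that included 1 as a ratio, once the cell with most Icam1 UMIs was left out of each library.

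For Vcam1 it was 1.09 in arterial-like cells and 1.08 in cells with sinus genes, against -2.07 in lymphatic-like cells, where 54 of 66 control counts came from 1 cell and the value without the top cells was -0.07. For Mcam it was 0.26 in capillary-like and 0.50 in HEV-like cells, against -0.39 in arterial-like, -0.82 in venous-like and -2.08 in lymphatic-like cells.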

How the results depend on the processing

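Of 478 member ratios under the alternatives, 430 stayed within their counting interval, 42 moved further and 6 turned. A ratio counted as turned only if its main log2 value was at least 1 in size and its sign changed. Sign changes of smaller ratios are thus not among the 6. With called doublets removed, other Cdh5 minimums (1 or 5 UMIs), a filter on UMIs and mitochondrial share, or without mitochondrial, ribosomal protein and hemoglobin genes, no member ratio of the arterial-like, venous-like and lymphatic-like classes left its interval. Without a minimum of UMIs the genes past 2-fold numbered 828 up and 2136 down in arterial-like cells (207 and 391 with it), 671 and 2585 in venous-like cells (263 and 325) and 592 and 4471 in lymphatic-like cells (377 and 679), and at 1.5-fold 529 and 1323, 705 and 1034, and 778 and 2257. In endothelial cells with 0 Ptprc UMIs the log2 ratio in venous-like cells was 0.34 for Selp, -0.22 for Icam1, -1.01 for Vcam1 and -1.48 for Selplg, and that of Vcam1 in lymphatic-like cells turned to 0.38. With classes from unsupervised clusters 190 genes passed 2-fold down in arterial-like cells, where the log2 ratio was 0.34 for Selp, 1.18 for Icam1, -0.70 for Icam2 and 0.38 for Vcam1. There Selplg stood at -2.05 in venous-like and Vcam1 at -0.026 in lymphatic-like cells, and Icam1 in capillary-like cells (-0.18) and Vcam1 in cells with sinus genes (-2.02) turned. As a mean over cells, Vcam1 in arterial-like cells had 1.43 and Selp in venous-like cells 0.54.

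The next alternatives were added after the data had been seen. In arterial-like cells with 500 CPM or more of capillary genes 74 genes passed 2-fold up and 131 down, and the log2 ratio was 2.24 for Selp (0 and 1 counts), 0.85 for Icam1, -0.27 for Icam2, -1.44 for Mcam and, turned, -0.34 for Vcam1. In lymphatic-like cells without Lyve1 Vcam1 had -2.67 and Mcam -2.80, and with Lyve1 Vcam1 turned to 0.0056. Without the top cell Vcam1 had 1.56 in arterial-like and -0.069 in lymphatic-like cells. In arterial-like cells without a mural UMI the value was 2.05 for Selp, 1.82 for Icam1 and, turned, -0.27 for Vcam1, and with fewer than 5 mural UMIs 1.54 for Selp and 0.98 for Vcam1. Except where 1 cell or the smaller number of cells sets a value, the cause was not tested.

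No paired analysis was possible because each condition had 1 library and no test was made. Depth limits Sele in all classes and each member with under 50 counts in a class.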

Other observations

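The 101 control and 69 Flcn iΔEC cells with Cdh5 and Ptprc together were left out of the classes. Their Selplg level was 64.3 and 75.7 CPM, between that of endothelial cells and lymphocytes, and their Sele counts (16 and 8) stood beside 10 and 20 in all other endothelial cells together. Of the 16 control Sele counts 1 cell held 8, and of the 8 Flcn iΔEC counts 1 cell held 3. Vcam1 stood at 73.5 and 41.2 CPM in them, a ratio of 0.560 (0.450 to 0.693), but 1 cell held 182 of the 335 control counts and 1 cell 45 of the 118 Flcn iΔEC counts, and without the top cell of each library the values were 34.3 and 25.8 CPM and the ratio 0.753 (0.562 to 1.002). Selp stood at 19.7 and 36.3 CPM, a ratio of 1.84 (1.37 to 2.47). T and B cell marker genes stood in these cells at 14.2% and 10.3% of their level in lymphocytes, and their median depth was 32767 and 32477 UMIs.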
